A study of Mus musculus with 4 samples.

Results

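The genes described here encode 7 amino acid transporters of the plasma membrane, Slc7a5, Slc3a2, Slc7a6, Slc1a5, Slc38a1, Slc38a2 and Slc7a1. They were chosen by name, and all 14 probe sets that the platform annotation assigns to them were taken, out of 45101 probe sets for 18193 genes. Expression was read on 4 Affymetrix mouse arrays, 2 for each of 2 CD8 T cell populations sorted from the spleen of wild-type mice of the B6 strain. The Ly49+ cells (CD44+CD122+Ly49+) are called CD8+ Treg in the labels, and the Ly49- cells (CD44+CD122+Ly49-) conventional memory cells. Both populations were sorted on the activation and memory marker CD44 and on CD122, the beta chain of the interleukin-2 and interleukin-15 receptors, so neither group holds naive cells by design. Nothing in the labels ties the replicates to separate mice, so p-values reflect only how these samples vary, and that variation may be technical.

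T cells import amino acids through solute carriers, and activated T cells are known to raise several of them together because growth and division need leucine, glutamine and arginine. The heavy chain Slc3a2 (CD98 or 4F2hc) carries light chains such as Slc7a5 and Slc7a6 to the cell surface, and the light chains do the transport. Slc7a5 brings in leucine and other large neutral amino acids in exchange for glutamine, which carriers such as Slc1a5, Slc38a1 and Slc38a2 supply. Leucine and arginine inside the cell are sensed by mTORC1, a kinase complex that promotes growth, while amino acid shortage acts through the transcription factor ATF4, which is known to raise Slc38a2, Slc3a2, Slc7a5 and Asns.

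The CD8 identity shared by both populations was visible on all arrays, from genes that do not check the sort on Ly49. Cd8a read between 18009 and 19070, and none of the sort genes Cd8a, Cd8b1, Cd44 and Il2rb passed the test between the groups. Array medians lay between 188.5 and 190.4, and pairwise Pearson correlations over probe sets between 0.996 and 0.998, with the number of arrays limiting the precision. One array stood apart in its controls. On Ly49- replicate 1, the 9 older probe sets for the bacterial spike-in transcripts bioB, bioC, bioD and cre read 0.217 to 0.704 times the mean of the other arrays, while the 9 newer probe sets for the same transcripts read 0.958 to 1.06 times. Its part in the results was not tested. With that array left out, the differences of the 7 transporters ran from -0.10 (Slc7a6) to 0.28 (Slc38a2). That of Slc38a2 was 0.15 with all arrays, and its dimmest probe set moved from 0.28 to 0.63. Further values are given below. The highest of 27 Bacillus control probe sets read 70.3, and intensities below it are treated as background. Markers of other cell types were also read, and whether they come from other cells or from the sorted cells was not tested. Of all genes, 1.93% were called higher in Ly49+ cells and 2.07% lower. Of 19 macrophage and myeloid markers 15 were higher in Ly49+ cells, 2 lower and 2 did not pass, with summed intensities of 33126 and 37077 on the Ly49+ arrays against 22421 and 22424. With 1 array left out, 6 to 13 of the 19 were higher, the fewest when either Ly49- array was missing. None of these markers was at 0, Csf1r read 4000 against 2691 on average, and Itgam lay below the Bacillus controls in both groups. Of 14 B cell markers 4 were higher and 1 lower, with sums of 46864 and 49872 against 36901 and 37549, while Pax5 lay at background in both groups. Of 13 NK cell markers 10 were higher and 3 did not pass (median 0.76), with sums of 39517 and 39682 against 19472 and 19361. Their member Ncr1 was at background, at 39.8 against 39.9. The part of these marker differences in the results below was not tested.

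All 7 transporter genes were bright in both populations, and no difference between Ly49+ and Ly49- cells passed the test for any of them. Differences in the best probe set of each gene lay between -0.069 and 0.15 on the log2 scale, Ly49+ minus Ly49-. With limma, 0 of 7 genes passed at an adjusted p under 0.05, where 4.0% of all genes did, so a count of 0 in 7 is near that background. Tested one by one, 0 of 14 probe sets passed, where 1.19% of all probe sets did. At an unadjusted p under 0.05 the count in these fits was 0 of 7 genes and 0 of 14 probe sets. In the gene fit 3284 of all 18193 genes lay under that cut, so a count of 0 in 7 says little. These fits leave out the replicate number, and a fit with it is given in the last section. The groups did not overlap for 2 of 7 genes, where 48.4% of all genes had no overlap, and for 3 of 14 probe sets, where 44.9% of all had none. The 95% intervals of the 7 differences lay between -0.22 and 0.35, which corresponds to 0.859-fold and 1.28-fold. For these samples the intervals exclude a doubling or halving of the intensity, and they do not show that the levels are equal. Like the p-values, they reflect only how these samples vary. In bulk samples such as these, fewer cells of a type and less RNA per cell cannot be told apart.

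**Figure D1:**
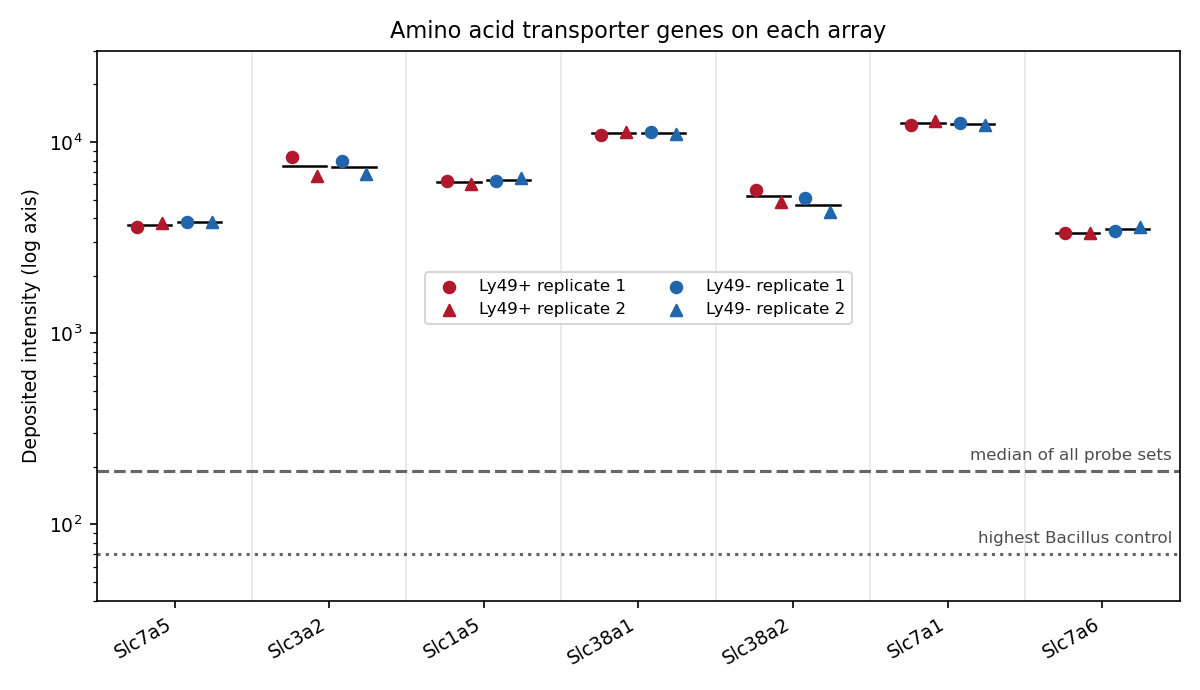
Deposited intensity (log axis) of the brightest probe set of each transporter gene on each of the 4 arrays, circles for replicate 1 and triangles for replicate 2, red for Ly49+ and blue for Ly49-. Short black lines are group means (2 arrays each), the dashed line is the median of all probe sets and the dotted line the highest Bacillus control (70.3). All points lie between 3323 and 12830, and heights are not comparable between genes because probe sets differ in brightness.

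The heavy chain and its light chains are described first. Slc7a5, the leucine carrier known as LAT1, read 3597 and 3749 on the Ly49+ arrays and 3815 and 3829 on the Ly49- arrays. Both Ly49+ values lay below both Ly49- values, by a small margin. The difference was -0.057 ± 0.049 (log2, SE), with a 95% interval from -0.17 to 0.055 and a limma adjusted p of 0.604. The gene has 1 probe set.

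Slc7a6, the light chain known as y+LAT2 that exchanges arginine and other cationic amino acids for neutral ones, read 3323 and 3335 in Ly49+ cells against 3412 and 3574 in Ly49- cells. The Ly49+ values were again the lower ones without overlap. The difference was -0.069 ± 0.051, with an interval from -0.18 to 0.048 and an adjusted p of 0.537. A second probe set read 2919 and 2893 against 2828 and 2996, where the Ly49+ values lay within the Ly49- range and the difference was -0.0024.

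Slc3a2, the heavy chain shared by both carriers, read 8330 and 6639 in Ly49+ cells against 7968 and 6791 in Ly49- cells. Here the groups overlapped fully, with both Ly49- values inside the Ly49+ range, and the spread lay within the groups. The mean was 7485 ± 1196 against 7379 ± 833 (SD, n = 2 each), a difference of 0.016 ± 0.10 with an interval from -0.22 to 0.25 (adjusted p = 0.963). The sign depended on the arrays used, since leaving out 1 array gave differences of -0.15 with Ly49+ replicate 1 missing, 0.18 with Ly49+ replicate 2 missing, 0.13 with Ly49- replicate 1 missing and -0.099 with Ly49- replicate 2 missing.

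Among the carriers of glutamine and small neutral amino acids, Slc1a5 (ASCT2), an exchanger of glutamine, read 6290 and 6047 in Ly49+ cells against 6219 and 6462 in Ly49- cells. The values overlapped, with a difference of -0.040 ± 0.045 and an interval from -0.14 to 0.063 (adjusted p = 0.713). Its second probe set was much dimmer, at 343 and 340 against 393 and 336, and overlapped as well.

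Slc38a1 (SNAT1), a sodium-coupled glutamine importer, read 10926 and 11305 against 11242 and 10993. The group means were 11116 ± 268 and 11117 ± 176, and the interval of the difference ran from -0.087 to 0.087 (adjusted p = 0.998). This probe set has a name ending in _s_at, so it may also detect other transcripts. The other probe set of the gene read 2872 and 2891 against 2810 and 2700, higher in Ly49+ cells without overlap by 0.065 on the log2 scale (limma adjusted p = 0.681 over all probe sets).

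Slc38a2 (SNAT2), the sodium-coupled importer best known for its induction when amino acids are scarce, had the largest difference of the 7 genes. It read 5579 and 4865 in Ly49+ cells against 5121 and 4291 in Ly49- cells. The lower Ly49+ value lay between the Ly49- values, so the groups overlapped. The difference was 0.15 ± 0.089, with an interval from -0.050 to 0.35 (adjusted p = 0.419). Of all 18193 genes, 75.3% had a difference no larger than this in size. The other probe sets gave 5463 and 4270 against 4939 and 4008, and 1018 and 915 against 1017 and 617. All 3 probe sets had the higher mean in Ly49+ cells, by 0.12, 0.15 and 0.28, with overlap in each and adjusted p between 0.556 and 0.755. Leaving out 1 array moved the difference of the brightest probe set to 0.053 with Ly49+ replicate 1 missing, 0.25 with Ly49+ replicate 2 missing, 0.28 with Ly49- replicate 1 missing and 0.025 with Ly49- replicate 2 missing, and none passed.

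Slc7a1 (CAT-1), the main importer of arginine and lysine, read 12260 and 12830 in Ly49+ cells against 12580 and 12274 in Ly49- cells. The means were 12545 ± 403 and 12427 ± 217, which overlapped, and the difference was 0.013 ± 0.039 with an interval from -0.075 to 0.10 (adjusted p = 0.905). A second probe set read 4783 and 4716 against 4752 and 4823, again with overlap. The third lay between 39.5 and 50.7 on all arrays, below the highest Bacillus control, and gives no level.

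**Figure D2:**
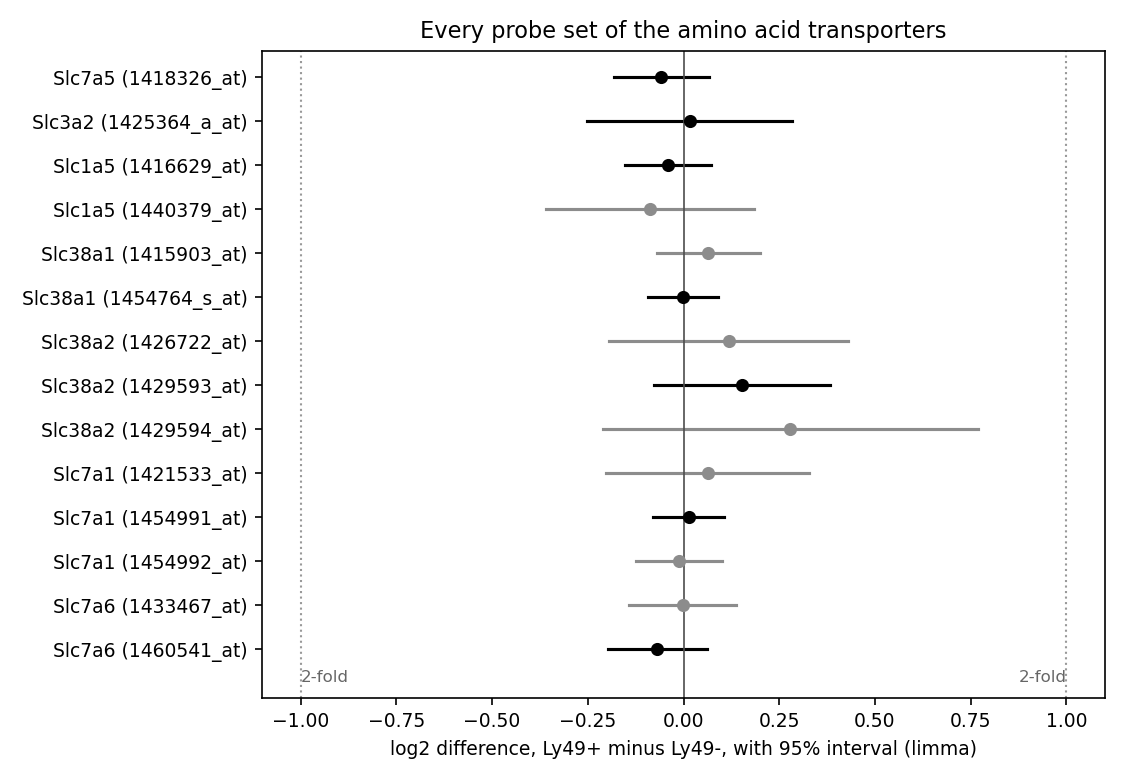
Difference between Ly49+ and Ly49- arrays (log2, Ly49+ minus Ly49-) for each of the 14 probe sets, with the 95% interval from limma fitted on all probe sets (2 arrays per group). Black marks the brightest probe set of each gene, grey the others, and dotted lines mark a 2-fold difference. All intervals include 0 and stay inside the 2-fold lines, and the widest belongs to the dimmest Slc38a2 probe set.

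Brightness, used here as a description only, placed the 7 best probe sets between the 86.2 and 98.2 percentile of all probe sets on their arrays. Slc7a1 lay at 98.0 to 98.2 and Slc38a1 at 97.3 to 97.6, while Slc7a6 lay at 86.2 to 87.1 and Slc7a5 at 87.2 to 88.0. Probe sets differ in their brightness per transcript, so these ranks do not order the transporters by abundance. The steadiness of a gene across arrays can be compared within each probe set. The highest array exceeded the lowest by a factor of 1.03 for Slc38a1, 1.05 for Slc7a1, 1.06 for Slc7a5, 1.07 for Slc1a5 and 1.08 for Slc7a6. For Slc3a2 and Slc38a2 the factors were 1.25 and 1.30.

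Slc3a2 and Slc38a2 also varied along the replicate numbers. Slc38a2 was in addition higher in Ly49+ than in Ly49- cells within each replicate number, except on its dimmest probe set. There replicate 1 was nearly equal, at 1018 against 1017, and the difference came from replicate 2, at 915 against 617. Slc3a2 was higher in Ly49+ cells in replicate 1 and lower in replicate 2. In both genes the arrays numbered 1 were the 2 highest of the 4 and the arrays numbered 2 the lowest. Replicate 1 exceeded replicate 2 by 0.33 in Ly49+ and 0.23 in Ly49- cells for Slc3a2, and by 0.20 and 0.25 for Slc38a2 (log2). The other Slc38a2 probe sets gave 0.35 and 0.30, and 0.15 and 0.71. For Slc7a5, Slc1a5, Slc38a1, Slc7a1 and Slc7a6 the same quantity lay between -0.066 and 0.057 in either group. A replicate difference over 0.2 in both groups, a size chosen after the values were seen, was met by 1 of 7 transporters, Slc3a2, and by 1.60% of all genes, with Slc38a2 just outside at 0.197 in Ly49+ cells. The opposite, replicate 1 lower by over 0.2 in both groups, was met by 0 of 7 transporters and 0.984% of all genes. With 1 array per number and group, these differences have no replicate check.

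**Figure D3:**
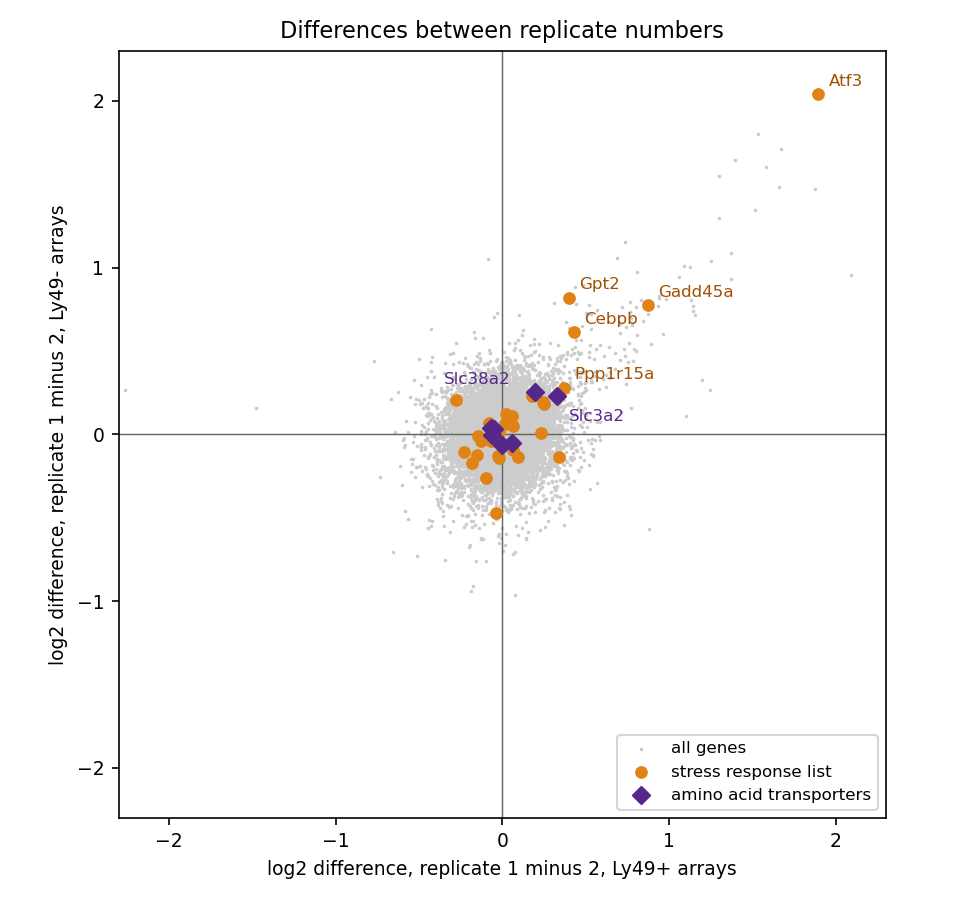
Log2 difference between replicate 1 and replicate 2 in the Ly49+ arrays (x axis) and the Ly49- arrays (y axis) for all 18193 genes (grey), the stress response and amino acid starvation genes (orange) and the 7 transporters (purple diamonds). Each point rests on 1 array per replicate and group. Slc3a2 and Slc38a2 lie to the upper right of the other transporters, and Atf3 is far out at 1.89 and 2.04.

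Among 31 measured genes of the integrated stress response and amino acid starvation, 5 met the same size, Atf3, Cebpb, Gadd45a, Gpt2 and Ppp1r15a, named here after their values were seen. Atf3, a stress-induced transcription factor of the ATF family, read 1249 and 324 in Ly49+ cells against 487 and 106 in Ly49- cells. Its replicate 1 values were higher than its replicate 2 values in both groups, by 1.89 and 2.04. Ppp1r15a, which encodes the phosphatase subunit GADD34 that ends the stress response, read 12028 and 9312 against 12001 and 9878. In contrast, Asns, which encodes asparagine synthetase and is a classic gene of amino acid shortage, was lower in replicate 1, by 0.23 and 0.11, so the genes of this list did not all move with Slc3a2 and Slc38a2.

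The sequences before the start of Slc3a2 and Slc38a2 are shown because these were the 2 transporters that varied together. Of the 7 genes, 4 were found in the RefSeq promoter table (GRCm38.p6), Slc3a2, Slc38a2, Slc7a1 and Slc7a6. Printed are the 250 bases before the start, 5′ to 3′ on the minus strand, at chr19:8713898-8714147 for Slc3a2 and chr15:96699729-96699978 for Slc38a2. Capitals mark GGGCGG or its reverse complement, the GC box read by Sp1-like factors, which 35.7% of all 32851 promoter windows of the table hold. It is not particular to these genes, since Slc7a1 and Slc7a6, which did not vary along the replicate numbers, also hold it in at least 1 window each.
Slc3a2: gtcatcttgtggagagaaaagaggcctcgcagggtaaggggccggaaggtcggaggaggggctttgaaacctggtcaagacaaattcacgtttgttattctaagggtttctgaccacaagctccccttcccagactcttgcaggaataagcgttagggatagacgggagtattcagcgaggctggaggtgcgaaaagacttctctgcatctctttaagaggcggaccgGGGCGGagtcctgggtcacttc
Slc38a2: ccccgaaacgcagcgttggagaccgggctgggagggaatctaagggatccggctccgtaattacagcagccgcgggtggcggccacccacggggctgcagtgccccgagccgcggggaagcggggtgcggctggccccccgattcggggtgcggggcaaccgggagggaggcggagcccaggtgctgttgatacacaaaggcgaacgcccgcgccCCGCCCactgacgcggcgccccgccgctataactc
The window of each gene, which runs to 50 bases past the start, was also searched on both strands for TGATGNAA, the core of the element bound by ATF4 with a C/EBP partner, and for CACGTG, the E-box read by Myc. Neither was found in the windows of the 4 transporters, which says only that these letters are not in these windows. TGATGNAA was found in 3.97% of all windows and CACGTG in 7.15%. For comparison, the Asns and Atf3 windows each hold 1 match to TGATGNAA, in capitals below with flanking bases, at chr6:7693210-7693262 and chr1:191183406-191183473 (minus strand). In Atf3 it is on the opposite strand, written as its reverse complement.
Asns: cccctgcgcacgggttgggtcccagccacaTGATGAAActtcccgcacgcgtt
Atf3: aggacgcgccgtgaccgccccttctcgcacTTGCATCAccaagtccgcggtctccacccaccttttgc

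Of 53 other measured amino acid transporters, 2 were higher in Ly49+ cells, 2 were lower and 49 did not pass, with a median difference of -0.044, beside -0.041 for all genes and -0.00034 for the 7 transporters. The shares of all genes called were 1.93% higher and 2.07% lower. They are the background for the lists below as well, and no list was tested as a set. Slc6a19, a neutral amino acid transporter best known from gut and kidney, read 197 and 222 in Ly49+ cells against 405 and 383. It fell by 0.86 on the log2 scale (adjusted p = 0.0040), and its other probe set fell by 0.96 on that scale (adjusted p = 0.016 among all probe sets). Slc43a3 was listed for its family, which includes the leucine carriers Slc43a1 and Slc43a2, but is itself known as a transporter of purine nucleobases. It read 486 and 471 against 680 and 663. It fell by 0.47 on the log2 scale (adjusted p = 0.020).

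Slc6a6, the taurine transporter, read 4982 and 4960 in Ly49+ cells against 4101 and 4313, a rise of 0.24 (adjusted p = 0.028). Its second brightest probe set gave -0.14 without passing, and the mean of all its probe sets gave -0.047. Slc1a3, a glutamate transporter known from astrocytes and macrophages, read 189 and 222 against 99.5 and 103, a rise of 0.92 (adjusted p = 0.0043). None of its 5 other probe sets passed. A probe set at 108 to 124 lay above the highest Bacillus control and gave a difference of -0.022. The rest lay below that control, which limits what they show. The mean of all, which includes the dim probe sets, gave an adjusted p of 0.256. The myeloid markers rose on the same arrays, with a median of 0.64, and their part in the Slc1a3 value was not tested. With either Ly49- array missing, Slc6a19 (adjusted p = 0.076 and 0.069) and Slc1a3 (0.076 both times) were no longer called. Slc43a3 was lost whichever array was missing, with adjusted p of 0.104 and 0.136 for Ly49+ replicates 1 and 2, and 0.128 and 0.137 for Ly49- replicates 1 and 2. In that order Slc6a6 had 0.199, 0.183, 0.129 and 0.091, and a spread estimate with no trend gave 0.149. The 4 calls became 0 with Ly49- replicate 1 missing.

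Of 38 measured genes of amino acid sensing by mTORC1, 1 rose, none fell and 37 did not pass (median -0.076). Rragd, one of the Rag GTPases that recruit mTORC1 to the lysosome, read 1900 and 1850 in Ly49+ cells against 1318 and 1365, a rise of 0.48 (adjusted p = 0.0047). Its other probe sets lay below the highest Bacillus control and did not pass. The call was lost when Ly49+ replicate 1 (adjusted p = 0.055) or either Ly49- array (0.067 and 0.058) was missing, and the mean of all its probe sets gave 0.491. Nprl3, Fnip2 and Wdr59, which regulate the Rag GTPases directly or through partners, had differences of -0.28, 0.45 and -0.32 without passing (adjusted p = 0.071, 0.098 and 0.101).

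**Figure D4:**
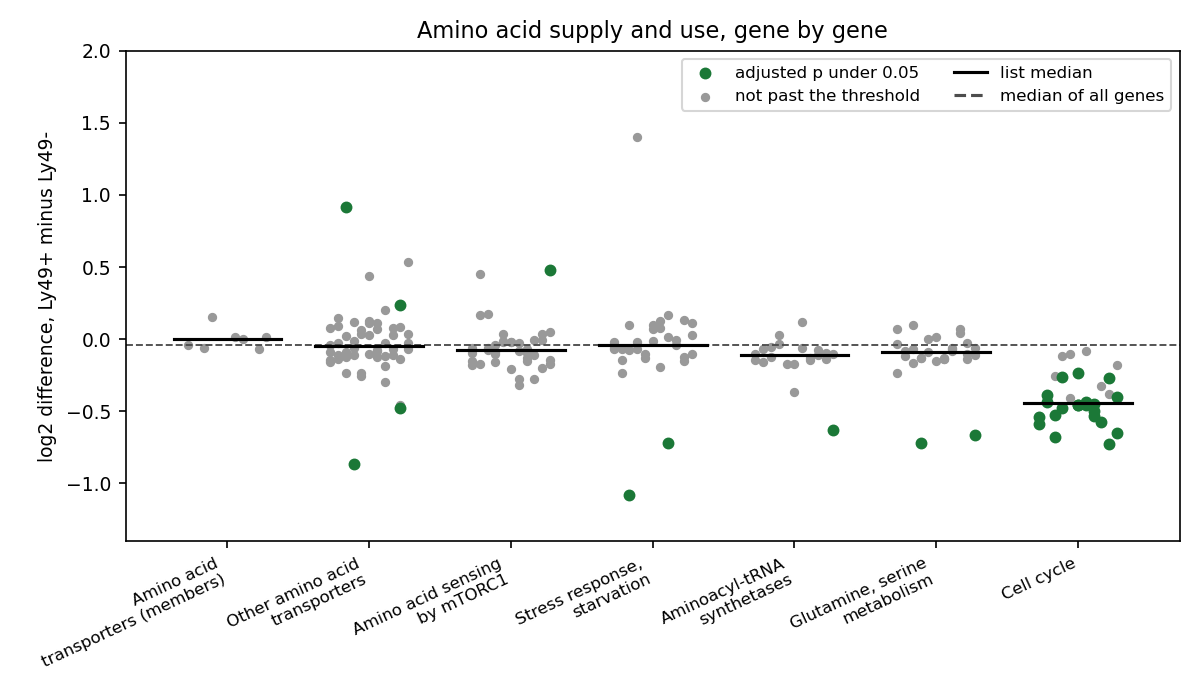
Log2 difference (Ly49+ minus Ly49-) of each measured gene of the transporters and of 6 further lists, green where the limma adjusted p is under 0.05 and grey otherwise. Black lines are list medians and the dashed line the median of all genes (-0.041). The transporters sit close to 0, while 21 of 30 cell cycle genes are past the threshold, all lower in Ly49+ cells.

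In the stress response and starvation list, 2 of 31 genes fell, none rose and 29 did not pass (median -0.041). Stc2, a secreted glycoprotein induced by stress, read 542 and 582 in Ly49+ cells against 1100 and 1325, and fell by 1.08 on the log2 scale (adjusted p = 0.0010). The gene fell less on its other probe sets, with differences of -0.62 and -0.68 (limma adjusted p = 0.048 and 0.052 over all probe sets). It was the single one of the 9 genes called here that stayed past the threshold in all 14 alternatives. Asns read 159 and 189 against 285 and 308 and fell by 0.72 on that scale (adjusted p = 0.013), as did its other probe set, by 0.91. Asns was no longer called when Ly49+ replicate 1 (adjusted p = 0.096) or either Ly49- array (0.101 and 0.162) was missing. Phgdh and Mthfd2, enzymes of serine synthesis and of the folate cycle, had differences of -0.23 and -0.15 (adjusted p = 0.085 and 0.138). The transporters named above as raised by ATF4, by comparison, had differences of 0.15 for Slc38a2, 0.016 for Slc3a2 and -0.057 for Slc7a5.

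Of 21 aminoacyl-tRNA synthetase genes and their partners, which load amino acids onto tRNA, 1 fell, none rose and 20 did not pass. The median was -0.11, and 90.5% of the differences were below 0, where 65.3% of all genes were. Cars, the synthetase for cysteine, read 249 and 285 against 368 and 484, a difference of -0.63 (adjusted p = 0.045). Its other probe set gave -0.012. The call was lost whichever array was missing, with adjusted p of 0.244 and 0.104 for Ly49+ replicates 1 and 2, and 0.076 and 0.276 for Ly49- replicates 1 and 2. It was also lost on averaging its probe sets (0.143), with no trend (0.118) and with a pseudocount of 64 (0.064). Vars, Gars and Iars had differences of -0.37, -0.16 and -0.17 (adjusted p = 0.063, 0.089 and 0.098).

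Of 29 measured genes of glutamine and serine metabolism, 2 fell, none rose and 27 did not pass (median -0.087). Besides Asns this was Bcat1, the cytosolic enzyme that starts the breakdown of leucine and other branched-chain amino acids, at 421 and 367 in Ly49+ cells against 598 and 666, a difference of -0.66 (adjusted p = 0.011). Bcat1 lost its call when Ly49+ replicate 2 (adjusted p = 0.089) or either Ly49- array (0.083 and 0.152) was missing, and on averaging its probe sets (0.078). That average includes a Bcat1 probe set at 39.2 to 55.4, below the highest Bacillus control. Mthfd1, another folate enzyme, had a difference of -0.14 (adjusted p = 0.107).

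**Figure D5:**
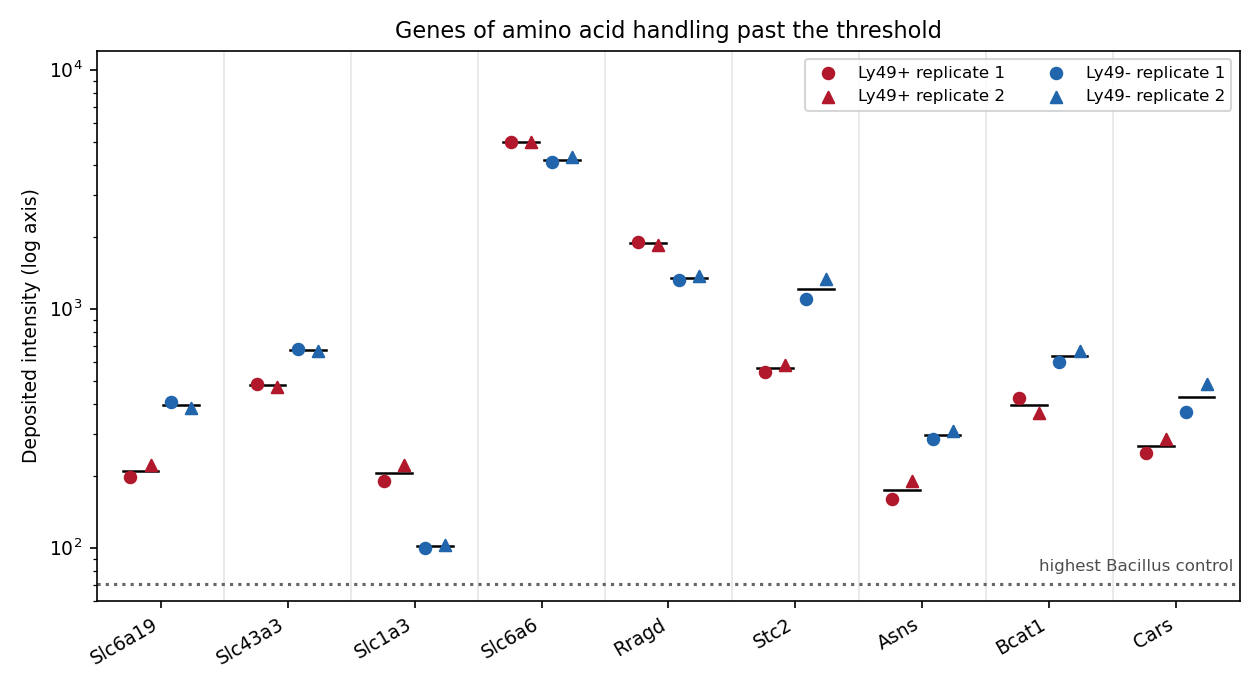
Deposited intensity (log axis) of 9 genes on each of the 4 arrays. They are the genes in the lists on amino acid handling, outside the 7 transporters, that passed the limma threshold in the fit by gene. Circles mark replicate 1 and triangles replicate 2, with red for Ly49+ and blue for Ly49-. Black lines are group means (2 arrays each). The groups do not overlap in any of the 9 genes. Choosing them by the test on the same arrays favours that, and 48.4% of all genes had no overlap. Slc1a3, Slc6a6 and Rragd are higher in Ly49+ cells and the others lower, and the dotted line is the highest Bacillus control (70.3).

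Genes often raised together with the transporters in growing T cells gave 2 pictures. Of 30 cell cycle genes 21 fell in Ly49+ cells and none rose (median -0.44), where 2.07% of all genes fell and 1.93% rose. With 1 array missing the count was 9 and 8 for Ly49+ replicates 1 and 2, and 4 and 0 for Ly49- replicates 1 and 2, while the median stayed between -0.47 and -0.40. Of 20 genes linked to Myc and growth, none fell, 1 rose and 19 did not pass (median -0.077). The one that rose was Mxd1, an antagonist of Myc, at 2788 and 2646 against 2156 and 2080, and it was not called with any 1 array missing. Myc itself read 10842 and 10392 against 9430 and 10137, a difference of 0.12 without passing (adjusted p = 0.223). The transferrin receptor Tfrc, the glucose carrier Slc2a1 and Bsg, a surface partner of the 4F2 heavy chain, differed by -0.0067, 0.039 and -0.066, and 0 of the 7 genes of that list passed, as in the transporters. Whether the transporters differ from the cell cycle genes in their response was not tested.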

How the data were processed

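Intensity values were used as deposited, on a linear scale with 1 value per probe set, brought to nearly the same distribution on all arrays by a method not given in the sources used here. Per the labels' protocols, total RNA was extracted with an RNeasy kit and labelled with biotin by the Affymetrix protocol. Gene names came from GEO's platform annotation, dated 2016. Each of 18193 genes was represented by its brightest probe set, tested on log2(intensity + 16) with limma 3.58.1 in R 4.3.3 (lmFit, eBayes with a trend; the design held the group alone, with 2 residual degrees of freedom and 6.70 from the prior). A separate fit tested all 45037 probe sets other than controls. P-values were adjusted by Benjamini-Hochberg over the whole table, with a threshold of 0.05. Fold changes on this scale understate the change of dim genes. The tests were tried on simulated data.

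The members and lists were chosen with earlier results of these data known. The text names all 7 members with every probe set. The rule for other names took, from each list, the genes past the threshold and, where fewer than 4 passed, those with the smallest p up to 4. It was applied to the lists on amino acid handling, and the other lists are given by counts. Further names were chosen after their values were seen. Alternatives were quantile normalization, pseudocounts of 1 and 64, brighter probe sets alone, other spread estimates, a replicate block, other choices of probe sets, a looser threshold of 0.1, and omission of each array in turn, which takes a single remaining array to be as variable as the group with 2. The cell cycle, growth and marker lists were refitted with arrays left out, a choice made after seeing the data. Background correction and scan batches could not be varied from these values.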

Additional observations from a re-analysis of the deposited data

How the results depend on the processing

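None of the 7 transporter genes passed the threshold under any of the 14 alternatives run. Their other probe sets did not pass under the alternatives run for them, which leave out both other choices of probe sets. Some signs changed. Slc38a1 was 0.0058 after quantile normalization, 0.032 with the mean of all probe sets and 0.065 without probe sets ending in _x_at or _s_at. After quantile normalization the second probe sets of Slc7a1 and Slc7a6 gave 0.0082 and 0.025. The mean of all probe sets turned Slc6a6 from 0.24 to -0.047. Leaving out 1 array gave differences from -0.15 to 0.18 for Slc3a2, -0.025 to 0.024 for Slc38a1 and -0.019 to 0.046 for Slc7a1. For other probe sets it gave -0.194 to 0.0211 for the second of Slc1a5, -0.059 to 0.295 and -0.0739 to 0.631 for the others of Slc38a2, -0.049 to 0.177 for the dim one of Slc7a1, which the filter on brighter probe sets removes, and -0.0438 to 0.039 for the second of Slc7a6.

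The 728 genes called became 371 without a trend, 1256 at an adjusted p under 0.1 and 107 to 289 with 1 array left out. The number called was 4 of the other transporters (2 with the mean of probe sets, 7 at 0.1, 0 to 3 with 1 array left out), 1 in amino acid sensing (0, 3, 0 to 1) and 1 of the synthetases (0, 4, 0 to 0). Further, the synthetases gave 0 without a trend or with a pseudocount of 64, and 2 with the brighter probe sets or a robust spread. The stress response list had 2 called and 1 to 2 with 1 array left out, and glutamine and serine metabolism had 2, with 1 by the mean of probe sets and 0 to 1 with 1 array left out. These counts come from the fit by gene. In the limma fit over all probe sets, the brightest probe sets of Slc43a3, Slc6a6, Asns, Bcat1 and Cars did not pass. Their adjusted p there was 0.071, 0.096, 0.054, 0.0503 and 0.133, and that of Mxd1 was 0.056. The brightest probe sets of Slc6a19, Slc1a3, Rragd and Stc2 passed in both fits. The causes of these changes were not tested, and leaving out an array also leaves fewer samples.

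The labels give both groups the replicate numbers 1 and 2 but do not say that a number marks a shared mouse or day. Across genes, replicate 1 minus replicate 2 correlated between the groups at 0.243, and at 0.450 over the 9096 genes brighter than the median, where the 7 transporters lie. With the replicate number as a block, 1527 genes were called, with 7 of the other transporters, 5 in amino acid sensing, 4 in the stress response list, 5 synthetases, 3 in glutamine and serine metabolism and 0 of the 7 transporters. Under the block Slc38a2 had a limma adjusted p of 0.059 (unadjusted p = 0.0054) and Slc3a2 an adjusted p of 0.892. The other probe sets of Slc38a2 had unadjusted p of 0.044 and 0.0495 there, with adjusted p of 0.292 and 0.307. The block also brought 6 named genes past the threshold, Nprl3 (adjusted p = 0.025), Fnip2 (0.031), Phgdh (0.0030), Vars (0.013), Gars (0.035) and Iars (0.040).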
